A study of Arabidopsis thaliana with 6 samples.

Results

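Transcript levels of 10 papain-like cysteine protease genes were followed in flower buds of Arabidopsis thaliana: CEP1 (AT5G50260), CEP2 (AT3G48340), CEP3 (AT3G48350), XCP1 (AT4G35350), XCP2 (AT1G20850), SAG12 (AT5G45890), RD21A (AT1G47128), RD21B (AT5G43060), RD21C (AT3G19390) and THI1 (AT1G06260). The genes were named by locus number as members of the protease families of CEP1, XCP1, SAG12 and RD21 with THI1, and are 10 of the 25964 loci with a read in any library. The study compared wild-type (WT) buds with buds of the atcep1 mutant, both in the Columbia background, in 3 classes of anther development. These are called stage A (anthers at stages 5 to 6), B (stages 7 to 9) and C (stages 10 to 11). Each genotype was sequenced once per stage, which gives 6 libraries of 4.04 to 4.41 megareads, counting uniquely mapped reads. The labels name the mutated gene by its line only, with no allele, and do not say how many plants gave buds to a library.

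Papain-like cysteine proteases are made as inactive proenzymes whose prodomain blocks the active site until it is cut off. Most reach the vacuole, the lysosome-like lytic compartment of plant cells, or the cell wall, and cystatins and serpins inhibit them. Several act in programmed cell death. CEP1 belongs to the proteases with a KDEL tail, a signal that returns proteins to the endoplasmic reticulum, and is known for its part in the death of the tapetum, the anther layer that feeds developing pollen. XCP1 and XCP2 digest the contents of dying xylem vessel cells, SAG12 is a classic marker of leaf senescence, and the RD21 proteases carry a granulin domain behind the protease domain.

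The ends of the coding sequences separate the KDEL proteases from the xylem proteases. The last 30 coding bases, 5′ to 3′ on the sense strand, are shown from RefSeq (TAIR10.1), with the last 4 codons before the stop codon in capitals. They lie at chr5:20456833-20456862 for CEP1, chr3:17899045-17899074 for CEP2, chr3:17907341-17907370 for CEP3, chr4:16811846-16811875 for XCP1 and chr1:7253508-7253537 for XCP2, all on the plus strand.
CEP1: tccttggactcgcttAAGGATGAACTCtaa
CEP2: aaagacggtgatgtcAAAGATGAGCTCtag
CEP3: gttcgtgatgatgttAAAGACGAGCTCtag
XCP1: atggcctcatatcctACCAAGACCAAGtga
XCP2: atggcttctttccccACCAAAACTAAGtga
The capitals of CEP1, CEP2 and CEP3 differ in bases and spell the same 4 amino acids, lysine, aspartate, glutamate and leucine, that is KDEL. None of the other 7 genes ends in those codons or in synonyms of them. XCP1 and XCP2 share another ending of 4 synonymous codons, threonine, lysine, threonine and lysine.

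The coding sequences are similar enough to ask whether reads could be credited to the wrong gene. RD21A and RD21B were the closest pair, identical at 78.9% of 1386 aligned bases, and their longest shared run was 28 bases. XCP1 and XCP2 matched at 73% of bases, CEP2 and CEP3 at 72.7%, and CEP1 and CEP2 at 70.9%. A read covered a median of 49 bases in models with 1 read. None of the exon windows of 49 bases of the 10 genes had an exact copy elsewhere in the genome, 0 of 1436 for CEP1 and 0 of 1679 for RD21A. CEP2 and CEP3 lie 6373 bases apart on chromosome 3, with 3 other protein-coding genes between them.

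In buds the 10 genes spanned from no read to 439 RPKM (reads scaled to the model's length and the library's total). Their summed level was 221, 281 and 377 RPKM in WT stages A, B and C, and 399, 555 and 700 RPKM in atcep1. RD21A stood highest and RD21B second in all 6 libraries. Together they held 93.9%, 90.9% and 88.5% of the summed RPKM in WT, and 75.5%, 70.3% and 77% in atcep1. THI1 held 1.71%, 2.06% and 0.594% of it in WT and 14.2%, 14.1% and 2% in atcep1. CEP1, CEP2, CEP3 and XCP1 stayed below 4 RPKM in every library, and their order within a library rests on few reads. Levels of genes that share sequence with another model may be too low, which concerns XCP1 and THI1 here.

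**Figure D1:**
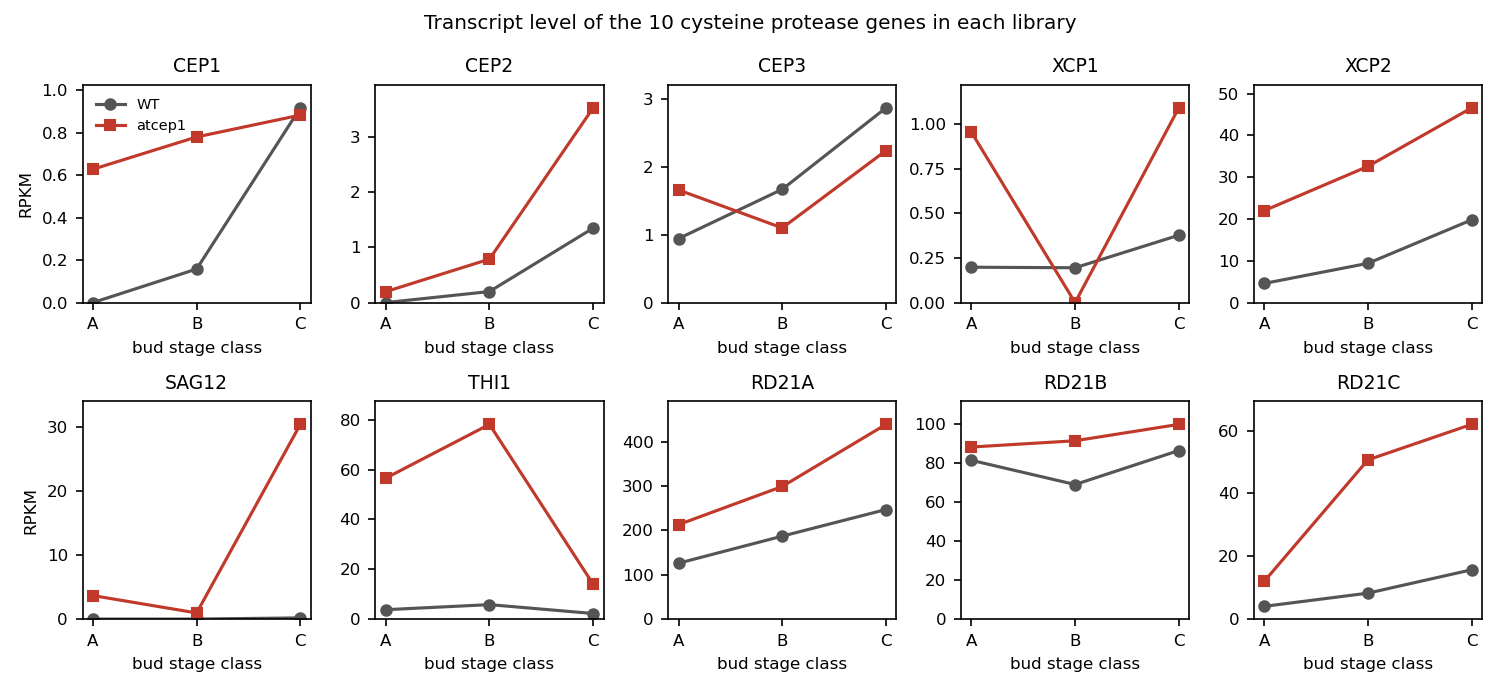
RPKM of each of the 10 genes (vertical axis, linear, own scale per panel) at bud stage classes A, B and C (horizontal axis), 1 library per point, WT as grey circles and atcep1 as red squares. XCP2, SAG12, RD21B and THI1 have all 3 atcep1 points above all 3 WT points, THI1 is low at stage C in both genotypes, and SAG12 reaches 30.4 RPKM in atcep1 at stage C only.

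The genotype comparison asked which of these transcripts differ between atcep1 and WT buds. Of the 10 genes, 5 had enough reads to be tested, and all 5 were higher in atcep1 (edgeR quasi-likelihood test with stage as a term, Benjamini-Hochberg adjusted p under 0.05 over 16114 genes). Among all genes tested, 16.0% were called higher and 11.5% lower. The median log2 fold change of the 5 was 1.72, beside -0.00 for all genes tested. THI1 had enough reads for the test in WT at stages A and B only (16, 25 and 10 reads at A, B and C). It passed with atcep1 libraries, so the count and median of the 5 are not read against all genes. THI1 differed most, followed by RD21C, XCP2 and RD21A, and the RD21B difference was the smallest and was not called in 10 of 11 alternative settings. The test had 2 residual degrees of freedom, and its spread is how far the genotype difference varied between stages. Its p-values measure only the spread between these libraries, which may be technical.

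CEP1, the gene the mutant is named for, was at or near the floor in every library. In WT it had 0 reads at stage A, 1 at B and 6 at C (0, 0.158 and 0.917 RPKM) and 4, 5 and 6 reads in atcep1 (0.628, 0.78 and 0.883 RPKM). Taking 3 reads as the limit that a count of 0 allows, WT stage A could hold up to 0.482 RPKM. The ranges of the genotypes overlap. At stage C the read ratio of atcep1 to WT was 0.963, with an exact 95% interval of 0.257 to 3.6. So few CEP1 reads give no check on which library is mutant.

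CEP2, another KDEL protease, had 0, 1 and 7 reads in WT buds of increasing stage (0, 0.2 and 1.35 RPKM) and 1, 4 and 19 reads in atcep1 (0.198, 0.788 and 3.53 RPKM). Its stage C libraries were the highest in each genotype. At stage C the read ratio of atcep1 to WT was 2.61 (95% interval 1.05 to 7.36, counting error only), and the intervals at stages A and B included 1. Within atcep1, the read ratio of stage C to stage B was 4.48 (1.49 to 18.1).

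CEP3, the third KDEL gene, had 5, 9 and 16 reads in WT (0.943, 1.67 and 2.87 RPKM) and 9, 6 and 13 in atcep1 (1.66, 1.1 and 2.24 RPKM). The genotypes overlapped, with atcep1 above WT at stage A and below it at stages B and C. No interval excluded a ratio of 1 between genotypes, and the WT ratio of stage C to stage A was 3.04 (1.06 to 10.6). With no filter on low counts, edgeR gave an adjusted p of 0.419 for CEP1, 0.108 for CEP2 and 0.929 for CEP3.

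XCP2 was the xylem protease with measurable reads. It had 24, 50 and 109 reads in WT stages A, B and C (4.58, 9.39 and 19.8 RPKM) and 118, 176 and 267 reads in atcep1 (22, 32.6 and 46.6 RPKM). The lowest atcep1 library, at stage A, lay above the highest WT library, at stage C. Across the stages XCP2 was higher in atcep1 by a log2 fold change of 1.72 (SE 0.18, adjusted p = 0.000429, edgeR). The read ratio was 4.8 at stage A (95% interval 3.08 to 7.79), 3.47 at stage B (2.52 to 4.85) and 2.36 at stage C (1.88 to 2.97). The interval at stage A lies above that at stage C, as a description of 2 libraries at each stage. The steps of development gave XCP2 a log2 fold change of 0.75 from A to B (adjusted p = 0.131) and 0.81 from B to C (adjusted p = 0.06), neither of which was called.

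XCP1, its relative, had 1, 1 and 2 reads in WT and 5, 0 and 6 reads in atcep1, over 2 listed isoforms. At stage C the ratio was 2.89, with an interval of 0.516 to 29.3, so a difference was not detectable at this depth. Unique reads can see little of this gene. Only 119 of 1269 windows of 49 bases of isoform 1 (9.38%) are absent from isoform 2, and these windows reach 16.3% of the model. The reads covered at most 7.21% of it in any library. The XCP1 level is therefore no measure of how it compares with XCP2.

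The promoters of the xylem proteases were searched for motifs, since XCP1 is known to be switched on in forming vessel elements through the tracheary element regulatory element (TERE). TERE was searched by its published consensus, the W-box core bound by WRKY factors as TTGAC and the E-box bound by bHLH factors as CANNTG, each on both strands. An E-box can overlap the W-box core. Among 27443 promoters of 250 bases, TERE was found in 0.368%, the W-box core in 44.9% and the E-box in 55.3%. Of the 10 promoters, 1 held TERE, 6 the W-box core and 6 the E-box. The 4 promoters printed here belong to both xylem proteases and to SAG12 and RD21C, 2 of the genes with large differences. All are on the plus strand, from RefSeq (TAIR10.1), end at the base before the annotated start, and carry motif matches in capitals. XCP1 spans chr4:16810232-16810481, XCP2 chr1:7251861-7252110, SAG12 chr5:18612989-18613238 and RD21C chr3:6722575-6722824.
XCP1: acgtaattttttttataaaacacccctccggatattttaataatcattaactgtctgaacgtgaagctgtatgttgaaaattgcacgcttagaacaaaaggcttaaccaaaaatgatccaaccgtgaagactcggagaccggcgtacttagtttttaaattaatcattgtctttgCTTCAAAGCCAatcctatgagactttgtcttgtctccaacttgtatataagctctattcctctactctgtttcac
XCP2: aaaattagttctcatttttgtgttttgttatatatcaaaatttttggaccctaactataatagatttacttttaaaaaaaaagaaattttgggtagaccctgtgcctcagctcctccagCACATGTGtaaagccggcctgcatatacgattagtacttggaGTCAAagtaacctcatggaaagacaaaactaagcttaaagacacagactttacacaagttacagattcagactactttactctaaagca
SAG12: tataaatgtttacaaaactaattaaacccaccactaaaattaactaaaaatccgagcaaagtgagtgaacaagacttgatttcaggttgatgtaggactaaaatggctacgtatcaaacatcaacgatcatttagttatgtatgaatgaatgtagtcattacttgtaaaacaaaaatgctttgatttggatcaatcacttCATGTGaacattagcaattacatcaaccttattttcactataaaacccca
RD21C: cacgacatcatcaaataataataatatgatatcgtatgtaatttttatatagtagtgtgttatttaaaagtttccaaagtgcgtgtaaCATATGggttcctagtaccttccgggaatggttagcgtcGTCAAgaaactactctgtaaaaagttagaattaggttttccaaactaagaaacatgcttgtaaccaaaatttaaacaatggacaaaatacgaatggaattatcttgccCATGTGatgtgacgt
The match in XCP1 is TERE, 75 bases before the start. XCP2 holds overlapping E-boxes 131 and 129 bases before the start and a W-box core at 89. SAG12 holds 1 E-box at 50 bases. RD21C holds E-boxes at 162 and 15 and a W-box core at 123. The shares of W-box cores and E-boxes over all promoters are high, and a match is a description of the letters, not of a bound site.

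SAG12 was nearly absent from WT buds. WT libraries held 0 reads at A, 0 at B and 1 at C, while atcep1 held 19, 5 and 168 (3.67, 0.959 and 30.4 RPKM). All 3 atcep1 libraries lie above all 3 WT libraries, and atcep1 stage C stands apart from the rest. At stage A, 19 reads against 0 gave an exact 95% lower limit of 4.56 for the read ratio. At stage C the read ratio was 162, with an exact interval of 28.6 to 6426 that rests on 1 WT read. At stage B, 5 reads against 0 gave an exact lower limit of 0.903, so a difference was not detectable at this depth. The reads covered 52.67% of the model at stage A of atcep1 and 88.91% at stage C. Within atcep1, the read ratio of stage B to stage A was 0.261 (0.0763 to 0.724), and that of stage C to stage B was 31.7 (13.3 to 98.9). SAG12 did not pass the filter on low counts. Without that filter edgeR gave an adjusted p of 2.51e-06, and the fitted fold change is not given since it depends on the prior count.

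RD21A, the most abundant of the 10, had 899, 1350 and 1852 reads in WT stages A, B and C (126, 187 and 247 RPKM) and 1553, 2193 and 3420 in atcep1 (213, 299 and 439 RPKM). Every atcep1 library lay above the WT library of its stage, while the ranges of the genotypes overlap, since WT stage C exceeds atcep1 stage A. The difference was a log2 fold change of 0.81 (SE 0.10, adjusted p = 0.000802, edgeR), with read ratios of 1.69, 1.6 and 1.78 at the 3 stages. RD21A rose over both steps of development, by 0.58 from A to B (SE 0.12, adjusted p = 0.03) and 0.53 from B to C (SE 0.12, adjusted p = 0.0339). RD21A is a vacuolar protease that is also induced by drought.

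RD21B, the nearest relative of RD21A in sequence, had 563, 485 and 629 reads in WT (81.3, 68.9 and 86.3 RPKM) and 625, 652 and 755 in atcep1 (88.1, 91.3 and 99.7 RPKM). The groups did not overlap, by a small margin of 86.3 against 88.1 RPKM. Its log2 fold change was 0.30 (SE 0.10, adjusted p = 0.0482, edgeR), at the edge of the threshold. The read ratio at stage A was 1.08 with an interval of 0.966 to 1.22. Neither step of development was called, at -0.04 (adjusted p = 0.935) and 0.27 (adjusted p = 0.26).

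RD21C, the third granulin-domain gene, had 27, 56 and 110 reads in WT stages A, B and C (4.05, 8.26 and 15.7 RPKM) and 82, 349 and 452 in atcep1 (12, 50.7 and 62 RPKM). Stages B and C of atcep1 exceed every WT library, and atcep1 stage A lies between WT stages B and C. It was higher in atcep1 by a log2 fold change of 2.19 (SE 0.18, adjusted p = 0.000133, edgeR). The ratio was 2.96 at stage A (1.9 to 4.77), 6.14 at B (4.62 to 8.29) and 3.96 at C (3.21 to 4.92). RD21C rose by 1.80 from A to B (SE 0.23, adjusted p = 0.00317). Its neighbour RDL2, an RD21-like gene whose start lies 272 bases beyond the end of RD21C with no gene between, had 42, 21 and 17 reads in WT and 22, 27 and 26 in atcep1 and was not called (log2 fold change -0.03, SE 0.34, adjusted p = 0.951).

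THI1 is a papain-like protease gene and not the thiazole synthesis gene of the same name. It had 16, 25 and 10 reads in WT stages A, B and C (3.77, 5.8 and 2.24 RPKM) and 246, 342 and 65 in atcep1 (56.6, 78.2 and 14 RPKM). The lowest atcep1 library, stage C, lies above the highest WT library, stage B. Its log2 fold change of 3.63 (SE 0.21, adjusted p = 3.33e-05, edgeR) was the largest of the 5 tested genes. The ratio was 15 at stage A (9.06 to 26.7), 13.5 at B (8.97 to 21.1) and 6.26 at C (3.19 to 13.7). THI1 fell from B to C, by 2.20 on the log2 scale (SE 0.25, adjusted p = 0.00236), and A to B was not called (0.54, adjusted p = 0.267).

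The THI1 locus also overlaps a long noncoding RNA gene, AT1G06265, which runs on the opposite strand and contains all 1156 bases of THI1. The labels describe no kit that marks strand, so reads from the pair cannot be told apart in the shared bases. Unique reads can reach only 331 of 1003 windows of 49 bases of THI1 (33%), or 45.2% of the model. Observed coverage was 29.21%, 34.54% and 24.26% in WT and 43.67%, 44.15% and 41.77% in atcep1. No library went past the 45.2% that unique reads can reach. The THI1 RPKM may therefore be too low as a level, by an amount that was not measured. AT1G06265, which has its own model, had 42, 85 and 23 reads in WT and 44, 44 and 9 in atcep1, and its log2 fold change of -0.63 (SE 0.28) was not called (adjusted p = 0.131). The part of AT1G06265 in the THI1 difference was not tested.

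**Figure D2:**
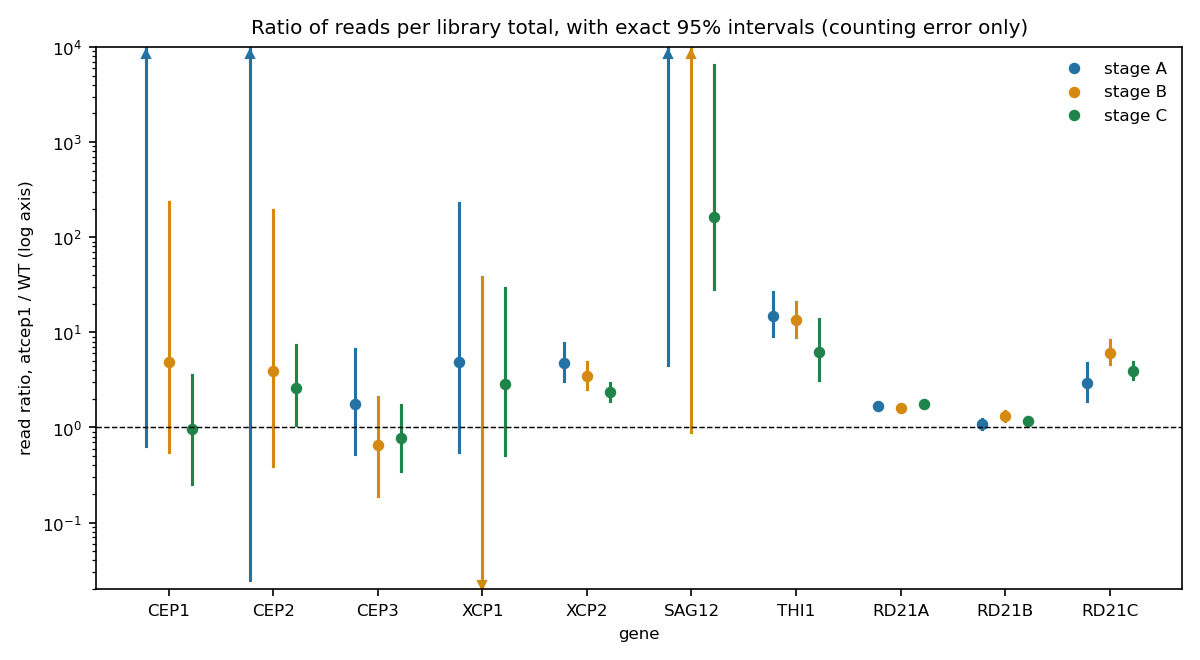
Ratio of reads per library total, atcep1 over WT (vertical axis, log scale), for each gene (horizontal axis) at stages A, B and C, with lines for exact 95% intervals that cover counting error only and arrows where an interval runs beyond the axis. Intervals lie above 1 for 5 genes at stage A, 5 at B and 7 at C, and below 1 for 0 genes; a WT count of 0 gives no point.

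Within stages the genes at least 2-fold higher in atcep1 were XCP2, RD21C and THI1 at stage A and at stage B, and these with SAG12 at stage C. The measure is log2 of RPKM + 1, for genes whose higher RPKM was at least 5. Of all loci at that level, 6.23%, 6.64% and 8.15% were 2-fold higher. XCP2, RD21C and THI1 at stage A, and SAG12 and THI1 at stage C, reached 5 RPKM in atcep1 only, so their number is not read against those shares. XCP2, SAG12, RD21B and THI1 had all 3 atcep1 libraries above all 3 WT libraries, as had 13.2% of loci with at least 5 RPKM in a library. SAG12 reached that level in atcep1 stage C alone, and at stage B its interval included a ratio of 1, so nothing is read from this count either. Over development, 2 of the 5 tested genes rose from A to B (RD21A and RD21C) and 0 fell, beside 4.36% and 0.484% of all genes. Without stage C, 4 were called at that step. From B to C RD21A rose and THI1 fell, beside 4.28% and 2.36%. Whether the genotype difference of a gene changes with stage could not be tested, with 1 library per genotype and stage.

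The other papain-like proteases were counted by the same test. Of 21, 12 were tested, 3 were higher and 1 lower in atcep1, beside 16.0% and 11.5% of all genes, and the median log2 fold change was 0.02. The difference between this list and the 10 genes was not tested. Without stage A, and also without stage B, 1 was called higher, and without stage C 3 were called lower. RD19C rose by 1.41 (SE 0.14, adjusted p = 0.000304), from 101, 175 and 244 RPKM in WT to 324, 494 and 457 RPKM in atcep1. RD19B (0.79, SE 0.21) and XBCP3 (0.46, SE 0.13) also rose, and the cathepsin B-like CTB1 fell by 0.84 (SE 0.16). The RD19C groups did not overlap. RD19A, at 399 to 676 RPKM over all 6 libraries, was higher than RD21A in every one and was not called (0.09, adjusted p = 0.528).

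Inhibitors of these enzymes moved both ways. Of 9 cystatins and other protease inhibitors, all 9 were tested, and 4 were higher and 2 lower, beside 16.0% and 11.5% of all genes. The median log2 fold change was 0.29, and the list was not tested against all genes. The count of lower ones was 0 without stage A and 1 without stage B. The cystatin CYS2 rose by 2.05 (SE 0.13, adjusted p = 4.19e-05), from 26.2, 53.9 and 55.5 RPKM in WT to 82.9, 259 and 218 RPKM in atcep1, without overlap. WSCP, an inhibitor of RD21, rose by 0.98 (SE 0.23, adjusted p = 0.0148), and CYS7 by 0.78 (SE 0.15). CYS4 fell by 0.61 (SE 0.16, adjusted p = 0.0261), and was 43, 44.3 and 46.8 RPKM in atcep1 against 80.7, 79.1 and 54.9 in WT.

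**Figure D3:**
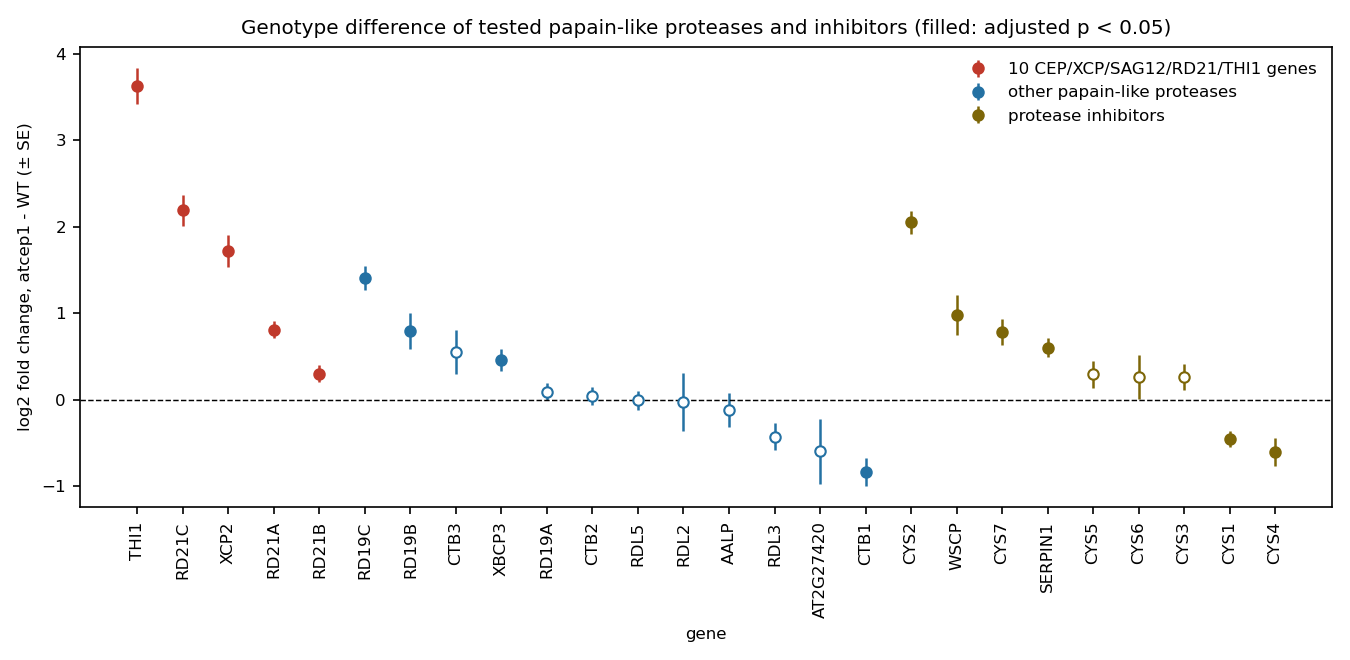
Log2 fold change of atcep1 against WT with its SE (vertical axis) for each tested gene (horizontal axis) of the 10 proteases, the other papain-like proteases and the protease inhibitors, filled where the adjusted p is below 0.05. The 5 tested genes of the first list all lie above 0, from 0.30 for RD21B to 3.63 for THI1, while the other lists have filled points on both sides of 0.

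Markers of tissues and processes tied to these proteases were read beside them, since bulk buds cannot tell fewer cells of a type from less RNA per cell. Developmental cell death markers were higher in 5 of 5 tested, beside 16.0% of all genes, with a median log2 fold change of 2.88. RNS3 and PASPA3 (7, 3 and 7 reads in WT) had enough reads for the test in atcep1 libraries only. DMP4 and BFN1 also needed atcep1 libraries to pass, so the count of 5 of 5 is not read against that share. The summed level of the cell death markers was 24.1 to 37.8 RPKM in WT and 107 to 164 in atcep1. SCPL48, a serine carboxypeptidase, made up most of that sum in every library, with 22.1, 34.4 and 26.6 RPKM in WT and 94.5, 124 and 77.4 in atcep1. Its share was smallest at stage C of atcep1, at 77.4 of 151 RPKM. RNS3, a ribonuclease, had 0 reads in WT stages A and B and was called at an adjusted p of 0.00109. Xylem and secondary wall markers were higher in 6 of 7 tested (median 1.83), beside 16.0% of all genes. MYB46 (3, 9 and 15 reads in WT) passed with atcep1 libraries, so this count is not read against that share. The called genes include NST1, an anther endothecium wall regulator. The vessel regulator VND6 was not called (0.29, adjusted p = 0.528, edgeR). VND7, another, was not tested, with 5, 4 and 5 reads in WT and 9, 4 and 4 in atcep1. The summed level of the list was 12.1 to 36.3 RPKM in WT and 55.4 to 149 in atcep1. LAC4, a laccase of lignified walls, rose by 3.06 (SE 0.16). The part of these wall markers in the XCP2 result was not tested.

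Senescence markers were higher in 3 of 6 tested, beside 16.0% of all genes, with a median of 0.63. Their summed levels were 75.2 to 94.1 RPKM in WT and 98.5 to 153 in atcep1. ORE1, a NAC regulator of leaf senescence, rose by 1.57 (SE 0.30). It had 9, 8 and 10 reads in WT and 23, 29 and 28 in atcep1. Only the atcep1 libraries had enough reads for the test, so the count of 3 of 6 is not read against the share over all genes. Tapetum markers were higher in 6 of 7 (median 2.04) and pollen markers in 5 of 7 (median 1.40), beside 16.0% of all genes. Several, such as ATA1 (41, 23 and 0 reads in WT) and TIP1-3 (3, 11 and 24), lacked reads in a WT library and passed with atcep1 libraries. These counts are therefore not read against that share either. In either list 0 were lower (1 pollen marker without stage C), beside 11.5% of all genes. From B to C, where THI1 fell, 6 of 7 tapetum markers also fell, beside 2.36% of all genes. Summed tapetum markers went from 351 to 11.2 RPKM over WT stages A to C and from 1207 to 191 in atcep1. Summed pollen markers went from 15.3 to 1686 RPKM in WT and from 116 to 2406 in atcep1. The sums of both lists were higher in atcep1 at each stage, but not every marker was. The pollen gene BCP1 had 106 and 366 RPKM in WT stages B and C against 45 and 269 in atcep1, and VGDH1 had 171 and 550 against 106 and 526. VGD1 was the most abundant pollen marker in every library. The tapetum regulators TDF1 (24.2 against 11.1 RPKM) and DYT1 (8.73 against 4.26 RPKM) were lower in atcep1 at stage A. TDF1 was higher in atcep1 at stages B (4.28 against 8.44 RPKM) and C (0.459 against 0.663 RPKM). It was not called (-0.24, adjusted p = 0.695, edgeR), and DYT1 was not tested. The part of these markers in any protease result was not tested. MYB26, an anther wall regulator, and SAG13 had no read in any library.

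**Figure D4:**
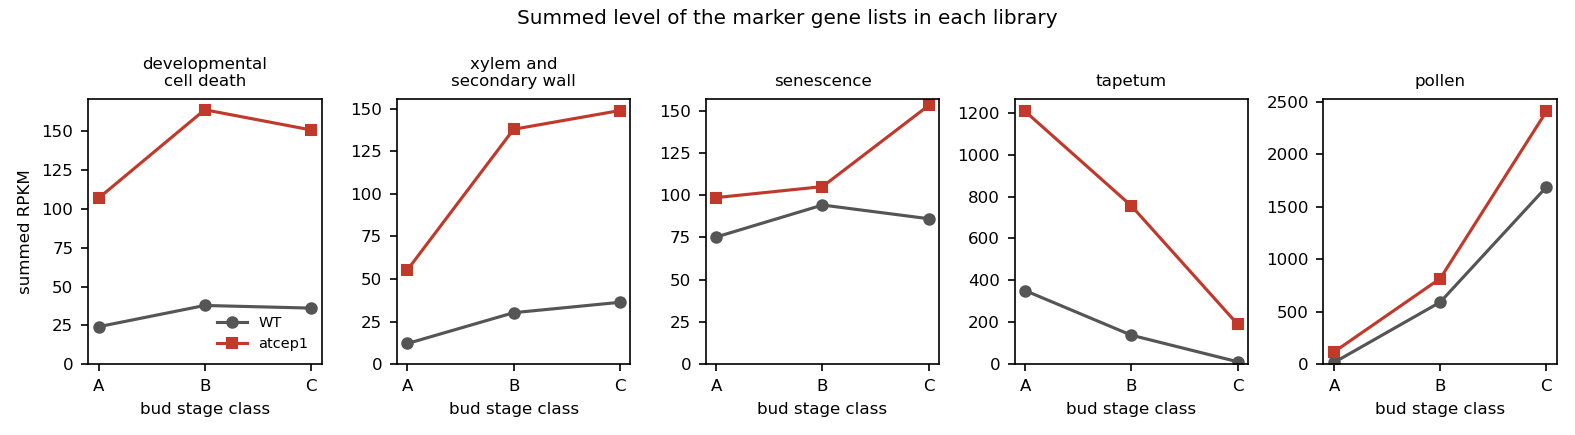
Summed RPKM of 5 marker gene lists (vertical axis, linear, own scale per panel) at bud stage classes A, B and C (horizontal axis), WT as grey circles and atcep1 as red squares, 1 library per point. The atcep1 points lie above the WT points at every stage in all 5 panels, where the most abundant markers weigh most, and the summed tapetum markers are lowest at stage C in both genotypes.

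For each gene with at least 5 RPKM in a library, the 3 other genes with the closest profile over the 6 libraries were found, by root mean square distance of centred log2(RPKM + 1) among 18100 genes. RD21B had the nearest, with AT5G57655 and AT1G59710 at 0.03 and GAUT8 at 0.04. RD21A was followed by AT5G24570 (0.06), AT1G02660 (0.08) and LGO (0.10), and XCP2 by AT5G62730 (0.09), AtOCT1 (0.12) and FMO GS-OX3 (0.14). RD21C had AT4G02140 (0.12), AT5G01760 (0.16) and AT4G11030 (0.18). THI1 had no close match, with AT1G20130 at 0.34, CYP86C2 at 0.45 and the tapetal gene ATA20 at 0.48. ATA20 had 5.9, 8.95 and 1.21 RPKM in WT and 80, 96.6 and 29.6 in atcep1. SAG12 was furthest from any gene, with AT2G22941 at 0.65, SCRL23 at 0.68 and CYP71B31 at 0.71.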

How the data were processed

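RNA of whole flower buds was read in 6 libraries, 1 per genotype and stage class. Per the labels' protocols, polyadenylated RNA was captured with oligo(dT), broken up, primed with random hexamers and amplified by PCR. Per the file headers, the deposited tables give for each transcript model a count of uniquely mapped reads, an RPKM and the percent of the model covered. The counts sum to the total in each header. The genome build is TAIR10, per the submitters' processing notes, with aligner and counter not given in the sources used here. The tables list only models that have a read, and any other model was taken as 0.

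Counts and RPKM of 30088 models were summed to 25964 loci. The genotype test was edgeR's quasi-likelihood F test (version 4.0.16, R 4.3.3) after filterByExpr and TMM scaling, with Benjamini-Hochberg adjustment, with stage and genotype as additive terms. SEs are the log2 fold change over the square root of F. Alternatives used DESeq2 1.42.0 and limma 3.58.1. Named genes are the 10 proteases, up to 4 called genes of each list by size, and 3 nearest profiles. RDL2 and AT1G06265 were added for their position. RD19A, MYB26, SAG13, SCPL48, BCP1, VGDH1, TDF1, DYT1, NST1, VND6 and VND7 were added after their values were seen. The 10 genes, the lists and the tests were chosen with earlier results of these data known. Intervals and floors (3 reads) cover counting error alone, because each genotype and stage has 1 library. Reads amplified by PCR need not be separate molecules, so the counting error may be larger than they show. Sequences and neighbours come from RefSeq TAIR10.1, whose positions hold the submitters' models of all 10 genes. Symbols of the nearest genes come from the submitters' gene descriptions, or from RefSeq where those give none.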

Additional observations from a re-analysis of the deposited data

How the results depend on the processing

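The direction of all 5 tested genes between genotypes held in each of the 11 alternatives. THI1 was called in 11 of 11, XCP2, RD21A and RD21C in 10 of 11, and RD21B in 1 of 11. The count of genes called was 4432. It was 2283 with DESeq2, 495 with no stage term, and 2323 to 4891 in the leave-one-out settings, lowest without stage A. Genes called higher among the 10 were 5, or 1 with no stage term, 4 with DESeq2 and 4 to 5 in the leave-one-out settings. Called at the step from A to B were 2 genes, against 1 with limma at either pseudocount (1 or 0.1), 0 with no genotype term and 4 without stage C. At the step from B to C the count was 2, against 4 with no filter on low counts, 1 with limma at either pseudocount and 0 with no genotype term. The cause was not tested. RD21A lost its call in 3 of 9 alternatives for A to B and in 4 of 9 for B to C. Of 154 counts of called genes in the other lists over the alternatives, 134 lay within 1.5 times the reported count and 20 did not. The stage term in the fit pairs each atcep1 library with the WT library of its stage, and each genotype and stage has 1 library. CEP1, CEP2, CEP3, XCP1 and SAG12 failed the filter on low counts; without it SAG12 was called and the others were not.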
